A study of Mus musculus with 27 samples.

Results

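Lungs of mouse fetuses that grew from in vivo-developed blastocysts after embryo transfer were compared with lungs of fetuses that had never been transferred. The comparison took the samples titled Experimental Group in vivo (EG in vivo here) and those titled Control_group, which make up 18 of the 27 arrays of the series, or 6 of its 9 pools. EG in vivo fetuses came from blastocysts that had formed in donor females and were then placed in pseudopregnant recipients, whose uterus is ready for embryos although they have conceived none. Control fetuses were conceived and carried by naturally ovulating females. All fetuses are labelled male, of the strain C57BL/6 X BALBc and at day 18 of gestation, and RNA came from the left lung lobe. Each group had 3 pools, called biological replicates, and each pool was hybridised to 3 arrays, whose values were averaged before any comparison. Not stated are the number of fetuses in a pool, whether pools came from separate litters, how gestation was dated in recipients and in mated females, or whether the arrays of all groups were run together. P-values therefore measure the spread between these pools.

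The lung of a mouse fetus near term is passing from growth to function. Its epithelium is splitting into flat alveolar type I cells, which will exchange gas, and alveolar type II cells, which make surfactant, the lipid and protein film that keeps air spaces open. Airways gain club cells, which secrete protective proteins, and ciliated cells, while cell division slows, elastic fibres are laid down and sodium channels appear that will drain the fluid of the fetal airways. Rising glucocorticoid in the fetus is known to drive much of this change.

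The arrays were Illumina bead arrays, on which a bead-bound probe reports a gene's RNA as a fluorescence intensity. Levels below are log2 normalized intensities, so 1 unit is a doubling, and a level can be set against the same gene in another pool but not against another gene. A difference is always EG in vivo minus control, with its standard error (SE). Between 21000 and 23090 probes were detected per pool on average, and 11774 genes were tested. One pool went against its label of male fetuses. Xist, whose RNA coats and silences the X in females, was at 4.59, 4.56 and 4.83 in EG in vivo pools and at 10.90, 4.71 and 4.60 in control pools on its brightest probe, and of these 6 pools control pool 1 alone had it on every array. The Y-linked gene Eif2s3y was at 11.06, 11.02 and 10.73 in EG in vivo pools and 11.53, 11.27 and 10.73 in control pools, so control pool 1 held Y-linked RNA as well. Of the lung's defining genes, Sftpc, surfactant protein C, and Nkx2-1, the lung lineage factor, were detected on all 18 arrays. Over the 6 pools, the first principal component held 64.1% of the variance and set the groups apart, and the next held 28% and set pool 3 of each group apart from pools 1 and 2.

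Of 11774 genes, 5206 passed the test between EG in vivo and control lungs (limma, adjusted p under 0.05), which is 44.2% of those tested. Of all genes, 22.5% were higher and 21.7% lower in EG in vivo lungs, as 2655 and 2551 genes. The pools of the groups did not overlap for 53.8% of genes. Without control pool 1, which carried Xist, 4379 genes passed, and 4325 of the 5206 kept their call. Of the genes given below with the values of a call, Mcidas and Sfrp1 lost it without that pool. The falls reached further than the rises: 1009 genes rose and 1274 fell at least 2-fold, 230 rose and 355 fell at least 4-fold, and 21 rose and 112 fell at least 8-fold. The median difference over all genes was 0.04. A gene was tested if at least 6 of 9 arrays of either group detected it, so one detected in a single group had to differ: 188 of the genes that passed were detected on no EG in vivo array and 58 on no control array. Where a count is given with the pool number as a block, pools of the same number were fitted as pairs. Calls were spread over the range of levels: 42.1% of genes passed among the dimmest genes and 46.0% among the brightest, with genes ranked by level and cut into 4 equal groups. Between 36.5% and 49.2% of the genes of each chromosome passed, with the X chromosome at 38.7%. The median SD between pools was 0.228 in EG in vivo and 0.237 in control lungs.

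**Figure D1:**
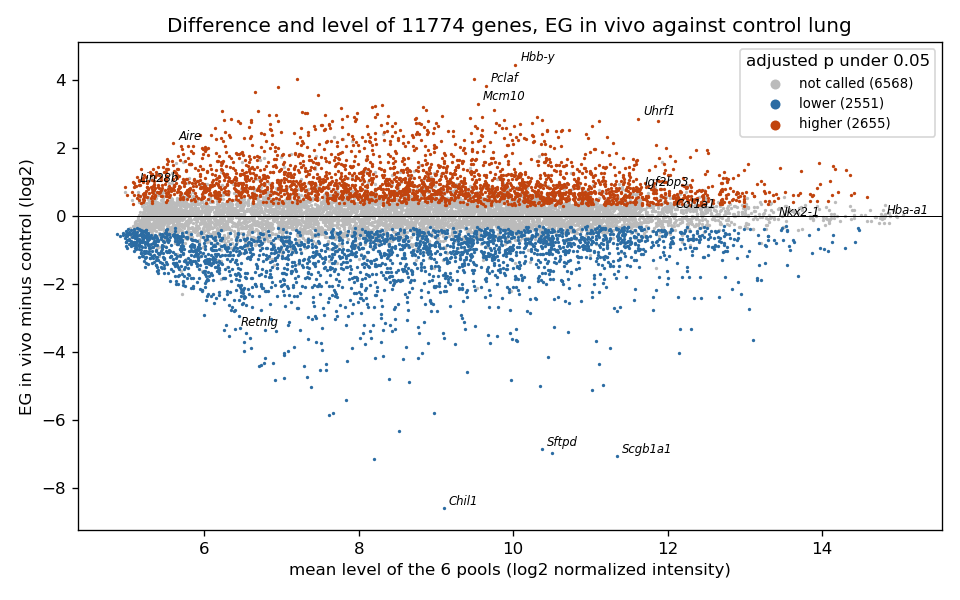
Each point is a gene, with its mean level over the 6 pools on the x axis (log2 normalized intensity) and the difference EG in vivo minus control on the y axis (log2). Genes higher in EG in vivo lungs (2655) are orange, genes lower (2551) blue, and genes that did not pass the test grey. The lowest point, Chil1, lies at -8.58 and the highest, Hbb-y, at 4.44.

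The genes were read in lists by cell type, process or pathway, shown in the plot of list members. Lists of dividing cells and of ribosome building lay almost wholly above 0 in that plot, and lists of mature epithelium, xenobiotic enzymes, granulocytes, interferon response and antigen presentation almost wholly below it. Lists of signalling pathways, of mesenchyme and of epithelial transcription factors had members on both sides. Among others, the share called was near or below the 44.2% of all genes for glutathione and NRF2 targets (46.2%) and hypoxia genes (45.8%). The same held for oncofetal genes (41.7%), BMP to retinoic acid signalling (40.4%), cholesterol synthesis (35.3%) and cytosolic ribosome genes (14%).

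**Figure D2:**
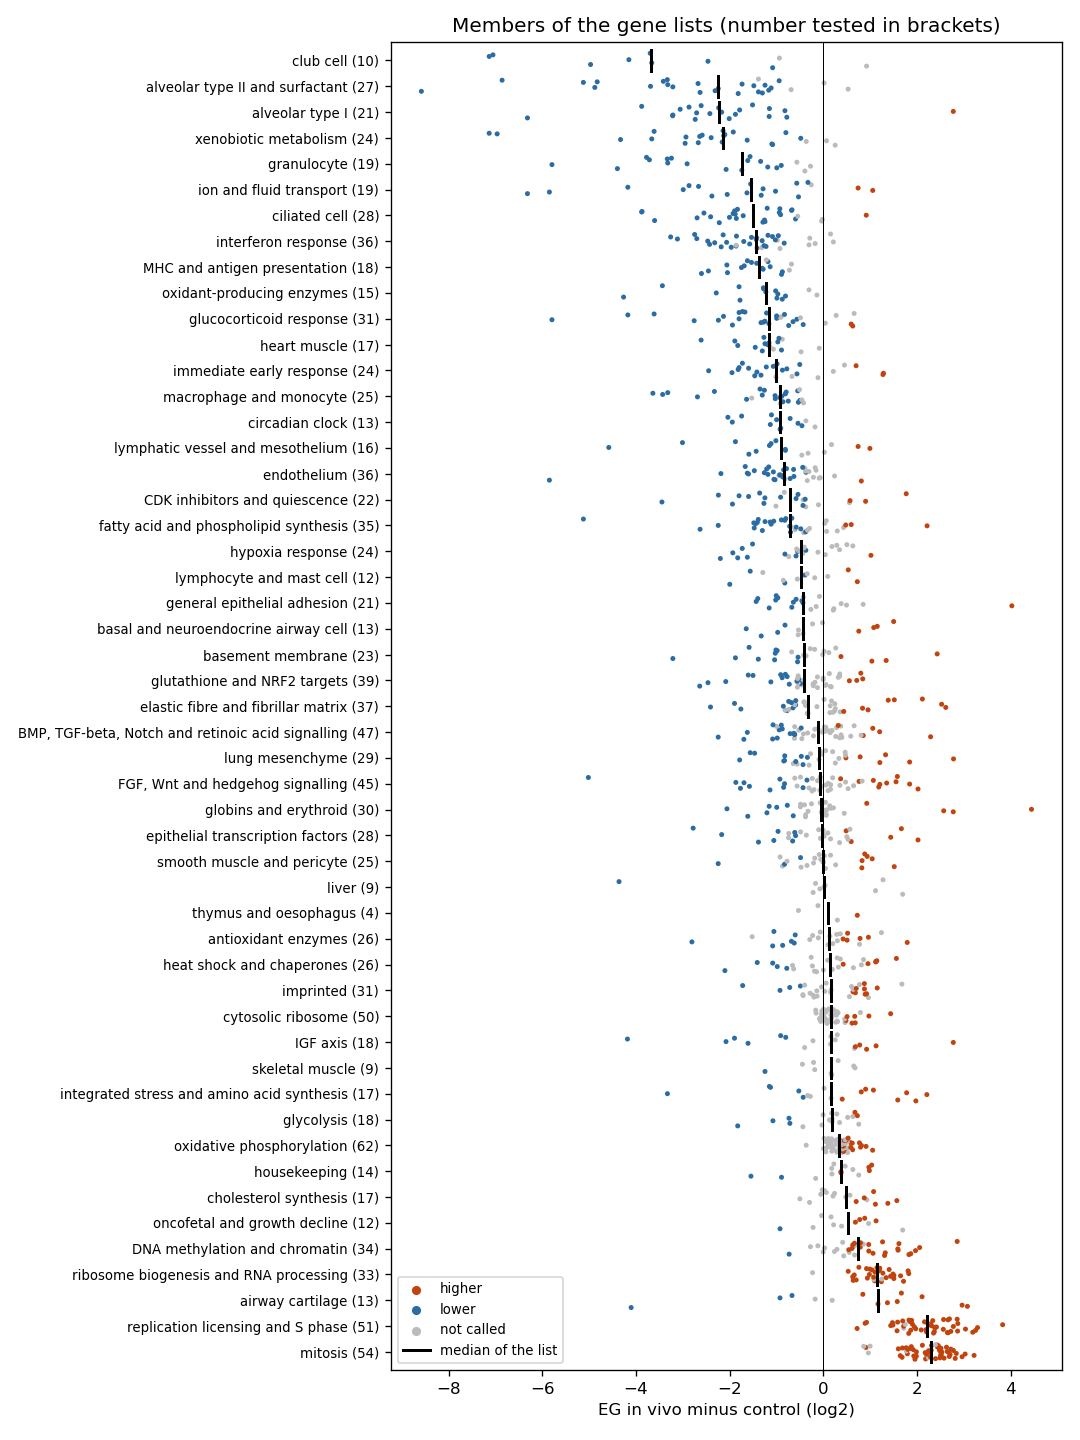
Each row is a gene list with its number of tested genes, and each point a gene, placed by its difference EG in vivo minus control (log2). Orange points rose, blue points fell, grey points did not pass the test, and the black bar is the list median, from 2.30 for mitosis at the foot to -3.68 for club cells at the top.

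Genes of cell division were higher in EG in vivo lungs. In the list of replication licensing and S phase, 48 of 51 tested genes rose and 0 fell, a share of 94.1% against 22.5% of all genes, with a median difference of 2.21. Pclaf, which binds the sliding clamp of the replication fork, stood at 11.55, 11.55 and 11.57 in EG in vivo pools, against 8.44, 7.54 and 7.21 in control pools, a difference of 3.83 ± 0.35 (adjusted p = 7.61e-05). Its EG in vivo pools were nearly alike, while its control pools were spread over more than 1 unit, with control pool 1 the highest. Mcm10, which starts the replication fork, was at 11.13, 11.07 and 11.36 in EG in vivo pools, against 8.22, 7.72 and 7.75 in control pools. Cdc6, which loads the helicase at origins, was at 10.66, 10.72 and 9.90 in EG in vivo pools, against 7.69, 7.51 and 6.51 in control pools, with pool 3 the lowest in both groups. The polymerase subunit Pole (2.87 ± 0.16), the helicase factor Gins2 (3.03 ± 0.18) and the deoxynucleotide enzyme Dctd (3.25 ± 0.17) rose too. Members of the list that did not pass were Gmnn, Prim1 and Pcna, named here after their values were seen, for which pool 3 was far below pools 1 and 2 in both groups. Pcna, the sliding clamp itself, was at 11.91, 12.21 and 9.52 in EG in vivo pools, against 10.27, 10.98 and 7.14 in control pools (adjusted p = 0.271). With the pool number as a block all 51 genes rose, Pcna with an adjusted p of 0.000701.

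Mitosis genes were higher too. In that list 48 of 54 tested genes rose and 0 fell, with a median of 2.30. Top2a, the topoisomerase that untangles chromosomes, stood at 11.74, 11.66 and 11.82 in EG in vivo pools, against 9.52, 9.20 and 9.57 in control pools (2.31 ± 0.15, adjusted p = 1.73e-05). Aurkb, the kinase of the chromosomal passenger complex, was at 11.35, 11.35 and 11.17 in EG in vivo pools, against 8.82, 8.53 and 8.08 in control pools. Espl1, the protease separase, was at 9.02, 9.11 and 9.47 in EG in vivo pools, against 6.49, 6.20 and 6.39 in control pools. In each of these genes the groups were well apart, and no control pool came within 2 units of an EG in vivo pool. Cdc25c, a phosphatase that opens mitosis (2.96 ± 0.29), Dlgap5, a spindle protein (3.03 ± 0.27), Cenph of the kinetochore (3.22 ± 0.32) and the kinase Melk (2.78 ± 0.30) also rose. Nuf2, a kinetochore protein detected on all EG in vivo arrays and on 1 of 9 control arrays, was at least 2.59-fold higher (adjusted p = 2.07e-05). DNA repair and histone genes were among the 20 largest rises of all genes: Rad54l (3.20 ± 0.22) and Rad54b (3.12 ± 0.16), which act in homologous recombination, and the replication histone H3c1 (3.18 ± 0.18). Chek1, the checkpoint kinase, was detected on 3 of 9 control arrays and was at least 7.6-fold higher (adjusted p = 1.41e-05).

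The promoters of these genes were read for sequence that they share, because the members moved together. The window was the 250 bases before each gene's start in RefSeq (GRCm38.p6), searched on both strands for TTTGAA, the CHR element known from late cell cycle promoters, and for CCAAT. The CHR letters were in 15 of 45 mitosis promoters (33.3%), in 7 of 42 replication promoters (16.7%), in 10.7% of the promoters of all tested genes and in 16.3% of all promoters in the table. CCAAT was in 66.7% of mitosis promoters, 61.9% of replication promoters and 36.1% of those of all tested genes, but also in 80.0% of the 15 promoters of antigen presentation genes, which fell. The pair of E2F letters TTTCGCGC or TTTGGCGC was in 9.52% of replication promoters, 4.44% of mitosis promoters and 1.22% of those of all tested genes, and in 13.3% of antigen presentation and 8.33% of interferon response promoters. As examples, 2 mitosis genes that rose and have CHR letters are shown, with the match in capitals. Some mitosis genes with larger rises are not shown, so the pair is not a ranking. Espl1 (chr15:102296043-102296292, plus strand) has it 27 bases before the start, and Cenpn (chr8:116921490-116921739, plus strand), a centromere protein at 9.97, 10.10 and 10.40 in EG in vivo pools and 7.69, 7.17 and 7.49 in control pools, has it 9 bases before the start, read on the other strand. A match describes these letters and is not a shown binding site.
Espl1: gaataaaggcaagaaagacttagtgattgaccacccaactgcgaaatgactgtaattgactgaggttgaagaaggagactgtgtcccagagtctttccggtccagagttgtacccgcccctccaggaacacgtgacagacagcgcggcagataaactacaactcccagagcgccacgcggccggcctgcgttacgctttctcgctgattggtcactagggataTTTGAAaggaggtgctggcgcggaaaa
Cenpn: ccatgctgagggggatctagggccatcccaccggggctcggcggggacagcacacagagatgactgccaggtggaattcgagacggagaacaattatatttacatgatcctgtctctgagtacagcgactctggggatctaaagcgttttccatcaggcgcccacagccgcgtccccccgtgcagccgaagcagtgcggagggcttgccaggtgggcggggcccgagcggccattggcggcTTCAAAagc

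Inhibitors of the cycle were mostly lower. In the list of CDK inhibitors and quiescence genes, 13 of 22 fell and 3 rose, with a median of -0.71. Cdkn2b, the inhibitor p15 of the G1 kinases, stood at 8.04, 7.95 and 8.70 in EG in vivo pools, against 11.75, 11.73 and 11.55 in control pools (-3.45 ± 0.22, adjusted p = 1.55e-05). Cdkn1a, the inhibitor p21, was at 7.03, 7.14 and 7.53 in EG in vivo pools, against 9.12, 8.84 and 9.56 in control pools. In both genes the groups did not overlap. The Krüppel-like factors Klf9 (-2.24 ± 0.16) and Klf2 (-1.60 ± 0.17) fell. Rbl1, the pocket protein p107 that is itself made in cycling cells, rose by 1.77 ± 0.18, and Cdkn2c, the inhibitor p18, by 0.90 ± 0.19. Cdkn2d, the inhibitor p19, also rose (0.57 ± 0.15, adjusted p = 0.0179), but did not pass without EG in vivo pool 2 (adjusted p = 0.0524) or without control pool 2 (adjusted p = 0.0575).

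Genes that build ribosomes and process RNA rose together: 30 of 33 tested genes were higher and 0 lower, with a median of 1.14. Gar1, a protein of the particles that modify ribosomal RNA, stood at 12.30, 12.14 and 12.38 in EG in vivo pools, against 10.52, 10.59 and 10.57 in control pools (1.71 ± 0.11, adjusted p = 1.72e-05). Polr1b of RNA polymerase I (1.82 ± 0.13), the nucleolar protein Nop58 (1.51 ± 0.12) and the spliceosome protein Snrpd1 (1.81 ± 0.16) rose as well. The ribosome's own proteins moved less, with 7 of 50 higher, 0 lower and a median of 0.16, or 12 called with the pool number as a block. Rps15a rose by 1.44 ± 0.20 and Rpl7a by 0.67 ± 0.11. In the list of DNA methylation and chromatin genes, 21 of 34 rose and 1 fell. Uhrf1, which guides the maintenance methyltransferase to replicated DNA, was at 13.09, 13.11 and 12.94 in EG in vivo pools, against 10.62, 10.34 and 9.61 in control pools. Dnmt1, that methyltransferase, was at 12.10, 12.20 and 11.93 in EG in vivo pools, against 10.48, 10.36 and 9.79 in control pools. For both genes the groups were apart by at least 1 unit, and control pool 3 was the lowest of the 6. Lmnb1, lamin B1 of the nuclear envelope (2.06 ± 0.20), the histone H2ax (1.97 ± 0.12) and Cbx5, a heterochromatin protein (1.83 ± 0.15), rose. Cbx7, a Polycomb subunit, fell by 0.73 ± 0.11.

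**Figure D3:**
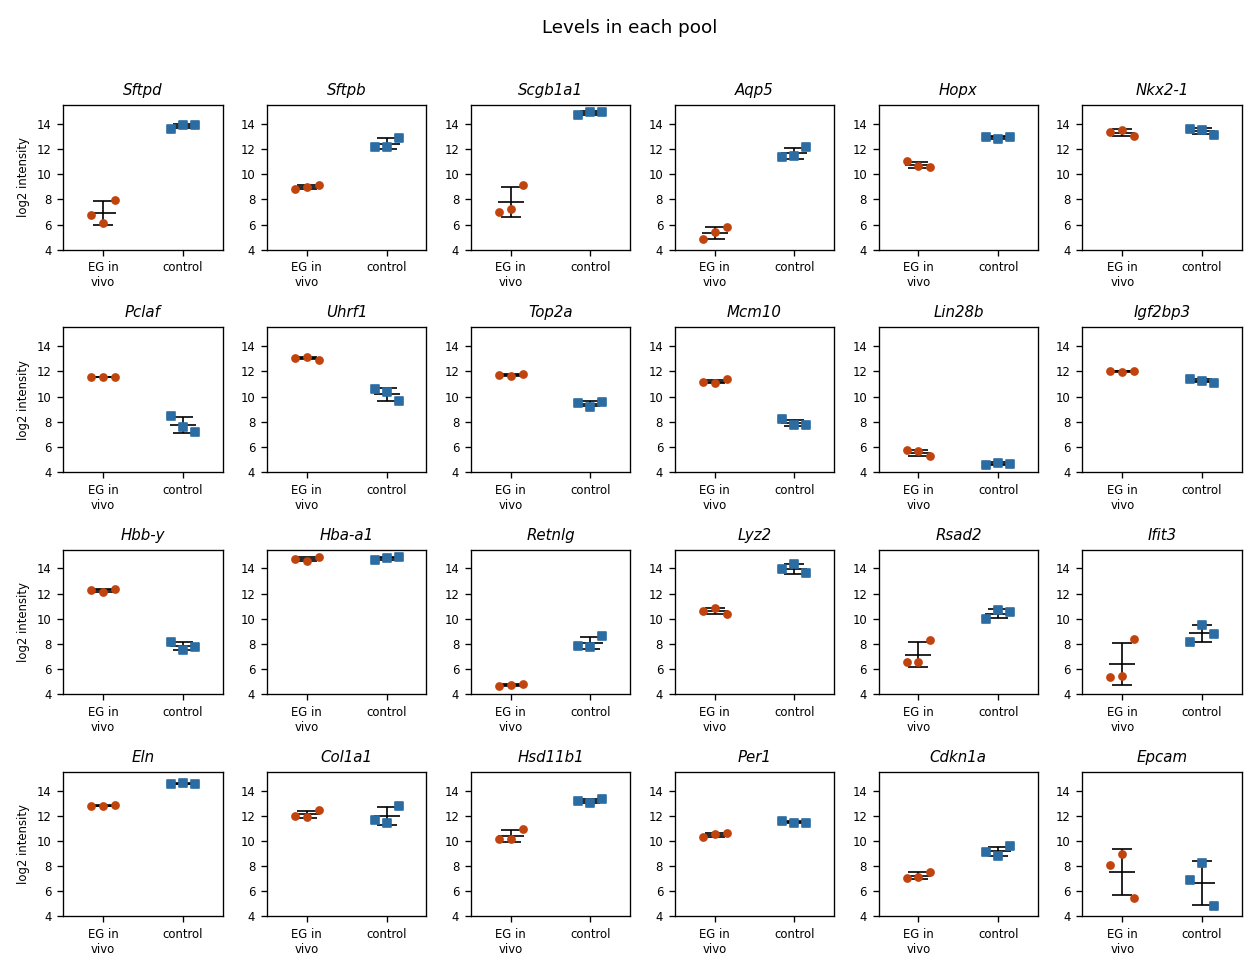
Levels of 24 genes in each pool (log2 normalized intensity, same y axis in all panels), with the 3 EG in vivo pools as orange circles on the left and the 3 control pools as blue squares on the right. Bars give the mean and SD of 3 pools. Sftpd, Scgb1a1 and Aqp5 lie far lower in EG in vivo pools, Pclaf, Uhrf1 and Hbb-y far higher, and Nkx2-1, Hba-a1, Col1a1 and Epcam overlap.

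Markers of differentiated lung epithelium were lower in EG in vivo lungs, and the size of the fall differed widely between genes of the same cell. In the list of surfactant and type II cell genes 23 of 27 were lower and 0 higher, and in the list of type I cell genes 20 of 21 were lower and 1 higher. Sftpd, surfactant protein D, stood at 6.73, 6.11 and 7.998 in EG in vivo pools, against 13.62, 13.90 and 13.89 in control pools. Sftpb, the surfactant protein that spreads the film and is needed for breathing, was at 8.82, 9.02 and 9.16 in EG in vivo pools, against 12.16, 12.16 and 12.92 in control pools (-3.42 ± 0.22, adjusted p = 1.45e-05). Sftpc was at 13.70, 13.76 and 14.03 in EG in vivo pools, against 14.83, 14.84 and 14.65 in control pools (-0.94 ± 0.13). All 3 fell with no overlap, Sftpc the least, but its levels are near the top of the scale (highest value 15.11), where signals can level off. Abca3, which loads lipid into lamellar bodies, fell by 1.82 ± 0.15, and Lamp3 of their membrane fell by 3.69 ± 0.17. Scd1, a fatty acid desaturase, was at 8.32, 8.57 and 8.48 in EG in vivo pools, against 13.58, 13.74 and 13.43 in control pools. In bulk tissue, fewer cells of a type and less RNA per cell cannot be told apart.

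In the type I list, Clic5, a chloride intracellular channel protein (-3.22 ± 0.27), and Col4a3, a basement membrane collagen chain (-3.21 ± 0.32), fell. Hopx, a cofactor of type I cells, was at 11.03, 10.66 and 10.60 in EG in vivo pools, against 12.97, 12.83 and 13.004 in control pools. The member that rose was Igfbp2, an IGF binding protein, at 10.38, 10.39 and 10.06 in EG in vivo pools, against 7.94, 7.44 and 7.13 in control pools. Of 10 club cell genes 8 fell and 0 rose. Scgb1a1, the main club cell secretoglobin, was at 7.01, 7.24 and 9.19 in EG in vivo pools, against 14.71, 14.93 and 14.96 in control pools, so that EG in vivo pool 3 stood above the other two yet far below any control pool. Cyp2f2, a cytochrome P450 of club cells, was at 8.76, 9.09 and 9.86 in EG in vivo pools, against 12.50, 12.88 and 13.32 in control pools, again with EG in vivo pool 3 the highest of its group. Scgb3a1, another secretoglobin, was detected in EG in vivo lungs on 0 of 9 arrays and on 9 of 9 control arrays, at 8.52, 9.62 and 6.94 in control pools, and was at least 8.25-fold lower (adjusted p = 0.00095).

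Cilium genes were lower. In the ciliated cell list 24 of 28 genes fell and 1 rose, with a median of -1.50. Rsph4a of the radial spoke was at 7.41, 7.66 and 7.90 in EG in vivo pools, against 10.18, 10.47 and 9.96 in control pools (-2.55 ± 0.18). Foxj1, the master factor of motile cilia, was at 6.02, 5.75 and 6.62 in EG in vivo pools, against 6.46, 6.87 and 6.70 in control pools, and did not pass (-0.55 ± 0.22, adjusted p = 0.0848). It did pass with the pool number as a block (adjusted p = 0.0405) and without EG in vivo pool 3 (adjusted p = 0.00847), which stood above the other two pools. Mcidas, which starts multiciliogenesis, was the member that rose (0.92 ± 0.31, adjusted p = 0.0435). That call was lost without EG in vivo pool 1 (adjusted p = 0.0636) and EG in vivo pool 3 (adjusted p = 0.109), and without control pool 1 (adjusted p = 0.12) or control pool 2 (adjusted p = 0.115). Among basal and neuroendocrine airway genes 4 of 13 rose and 4 fell, 30.8% each way against 22.5% and 21.7% of all genes. The basal keratin Krt15 fell by 1.65 ± 0.21 and Uchl1, a ubiquitin hydrolase of neuroendocrine cells, rose by 1.501 ± 0.21.

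The lung lineage factor Nkx2-1 and the epithelial cadherin Cdh1 did not pass. Nkx2-1 was at 13.38, 13.54 and 13.06 in EG in vivo pools, against 13.60, 13.52 and 13.15 in control pools, and the 95% interval of its difference was -0.49 to 0.29 (adjusted p = 0.691). Cdh1, the cadherin of all epithelia, was at 11.87, 12.14 and 11.73 in EG in vivo pools, against 12.25, 12.59 and 11.69 in control pools (interval -0.81 to 0.28, adjusted p = 0.423). For Nkx2-1 and Cdh1 the groups overlapped. In the list of epithelial transcription factors 8 of 28 fell and 5 rose, shares of 28.6% and 17.9% that lie near the background of all genes. Tfcp2l1, a factor of the grainyhead family, fell by 2.78 ± 0.20, and Cebpa, a factor of type II cell maturation, was at least 2.4-fold lower, with 5 of 9 arrays detecting it in EG in vivo lungs (adjusted p = 0.00895). Sox9, which marks the growing tips of the lung buds, stood at 12.29, 12.30 and 12.56 in EG in vivo pools, against 10.83, 10.74 and 10.58 in control pools. Etv4, an FGF-induced factor of the same tips, was at 7.84, 7.59 and 7.80 in EG in vivo pools, against 5.48, 5.55 and 6.14 in control pools. Foxp2 also rose (1.44 ± 0.23). Of 21 genes of general epithelial adhesion 11 fell and 1 rose, or 7 in both directions without EG in vivo pool 1 and 6 without EG in vivo pool 2. Ocln, a tight junction protein, fell by 1.02 ± 0.12, and Cldn18, the claudin of alveolar junctions, fell by 1.16 ± 0.14. The member that rose was Cldn6, a claudin of embryonic epithelia, at 11.28, 11.28 and 11.97 in EG in vivo pools, against 7.93, 7.15 and 7.38 in control pools.

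Embryonic globins were higher in EG in vivo lungs while the adult alpha globin did not pass. Hbb-y, the embryonic beta-like globin of yolk sac red cells, stood at 12.25, 12.10 and 12.40 in EG in vivo pools, against 8.15, 7.54 and 7.73 in control pools (4.44 ± 0.23, adjusted p = 6.21e-06). Hba-x, the embryonic alpha-like globin, was at 9.38, 9.13 and 9.51 in EG in vivo pools, against 6.72, 6.15 and 6.83 in control pools. Hbb-bh1, another embryonic beta-like globin, was at 7.24, 7.34 and 7.69 in EG in vivo pools and 5.03, 4.84 and 4.69 in control pools, where it was detected on 2 of 9 arrays. Each embryonic globin was higher in every EG in vivo pool than in any control pool. Hba-a1, the adult alpha globin, was at 14.77, 14.61 and 14.87 in EG in vivo pools, against 14.70, 14.80 and 14.89 in control pools (interval -0.31 to 0.22), near the top of the scale. In the whole list of globins and erythroid genes 4 of 30 rose and 7 fell, 36.7% called against 44.2% of all genes. Alas2, the first enzyme of heme synthesis in red cells, fell by 1.61 ± 0.21, and Tfrc, the transferrin receptor of growing cells, rose by 0.93 ± 0.20.

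Growth factor and imprinted genes went in both directions. Igf2, the fetal growth factor, was at 14.76, 14.75 and 14.74 in EG in vivo pools, against 14.16, 14.07 and 13.97 in control pools (0.68 ± 0.10, adjusted p = 0.000965). Igf2bp3, an RNA-binding protein of fetal tissue, was at 12.04, 11.97 and 12.05 in EG in vivo pools, against 11.36, 11.26 and 11.11 in control pools. Grb10, an imprinted inhibitor of insulin and IGF receptors, was at 14.43, 14.46 and 14.43 in EG in vivo pools, against 13.62, 13.41 and 13.50 in control pools. All 3 were higher in every EG in vivo pool than in any control pool, by less than 1 unit on average. Of 18 genes of the IGF axis 5 rose and 6 fell, shares of 27.8% and 33.3% against 22.5% and 21.7% of all genes. The binding proteins went both ways: besides Igfbp2, which rose, Igfbp6 (-4.18 ± 0.42), Igfbp3 (-2.08 ± 0.10) and Igfbp7 (-1.90 ± 0.13) fell. Igfals, which carries IGF complexes in blood, was at least 2.91-fold lower, with 5 of 9 arrays detecting it in EG in vivo lungs (adjusted p = 9.36e-05). Of 31 imprinted genes 8 rose and 4 fell, shares of 25.8% and 12.9%, or 20 in both directions with the pool number as a block. Dlk1, an imprinted inhibitor of differentiation, was at 14.71, 14.75 and 14.60 in EG in vivo pools, against 14.91, 14.94 and 14.88 in control pools, and did not pass (interval -0.45 to 0.01, adjusted p = 0.114), but passed under 5 alternatives, at -0.46 on the mean of its probes (adjusted p = 0.044). Igf2, Grb10 and Dlk1 are also near the top of the scale. Rasgrf1, an imprinted exchange factor, fell by 1.72 ± 0.26. Oncofetal genes, high in embryos and silenced later, had 4 of 12 higher and 1 lower, but only 2 called without EG in vivo pool 1, EG in vivo pool 2 or control pool 3.

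Targets of glucocorticoid were mostly lower. In that list 23 of 31 fell and 2 rose, 74.2% against 21.7% of all genes, with a median of -1.16. Hsd11b1, which regenerates active glucocorticoid inside the lung, stood at 10.13, 10.17 and 10.97 in EG in vivo pools, against 13.20, 13.04 and 13.31 in control pools (-2.76 ± 0.25, adjusted p = 6.86e-05). Sult1a1, a sulfotransferase, was at 7.94, 7.92 and 8.66 in EG in vivo pools, against 11.58, 11.65 and 12.14 in control pools. Pdk4, a kinase that spares glucose, fell by 2.13 ± 0.22. The receptor itself, Nr3c1, was at 7.95, 7.97 and 6.08 in EG in vivo pools, against 8.45, 8.40 and 7.85 in control pools, and did not pass (-0.90 ± 0.48, adjusted p = 0.173), though it passed with the pool number as a block (adjusted p = 0.0244). Its EG in vivo pool 3 was nearly 2 units below pools 1 and 2. Clock genes, several of them known to respond to glucocorticoid, had 11 of 13 lower and 0 higher, with a median of -0.92. Per1 was at 10.34, 10.53 and 10.62 in EG in vivo pools, against 11.60, 11.42 and 11.46 in control pools, and Per3 fell by 2.04 ± 0.23 and Rora fell by 1.745 ± 0.15. The labels give no hour of collection.

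Ion and fluid transport genes, which clear the fetal lung of fluid, were lower in 16 of 19 cases and higher in 2. Scnn1a, the alpha chain of the channel ENaC, was at 6.16, 6.17 and 7.73 in EG in vivo pools, against 10.44, 10.39 and 11.75 in control pools. Scnn1b, the beta chain, was at 7.66, 7.48 and 8.41 in EG in vivo pools, against 10.21, 10.31 and 11.03 in control pools. Scnn1g, the gamma chain, was at 8.78, 8.68 and 8.91 in EG in vivo pools, against 11.61, 11.50 and 11.86 in control pools. No chain's groups overlapped. Clcn2, a chloride channel of fetal airways, rose by 1.05 ± 0.14.

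Immediate early genes, which respond within minutes to growth factors and stress, fell in 16 of 24 cases and rose in 3. Fos, a subunit of AP-1, was at 7.77, 7.92 and 7.37 in EG in vivo pools, against 9.81, 9.75 and 9.36 in control pools (-1.95 ± 0.18, adjusted p = 7.75e-05). Egr1, a zinc finger factor of the same early wave, went the other way, at 11.38, 11.51 and 11.05 in EG in vivo pools, against 10.28, 10.41 and 9.44 in control pools (1.27 ± 0.25, adjusted p = 0.0041). Both genes' groups were separate. Junb (-1.82 ± 0.20) and Ier3 (-2.45 ± 0.21) fell, and Egr3 rose by 1.28 ± 0.23. Hypoxia genes had 10 of 24 lower and 1 higher, or 18 called with the pool number as a block. Vegfa, the vascular growth factor, was at 11.61, 11.46 and 11.43 in EG in vivo pools, against 13.13, 12.998 and 12.91 in control pools. Adm, adrenomedullin, fell by 2.20 ± 0.23. Epas1, the hypoxia factor HIF-2 alpha, was detected in EG in vivo lungs on 0 of 9 arrays, stood at 6.37, 6.17 and 8.09 in control pools, and was at least 2.95-fold lower (adjusted p = 0.00774). Car9, a carbonic anhydrase induced by hypoxia, was the member that rose (1.02 ± 0.23).

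Redox balance was a property the study set out to measure, and its genes did not move as 1 block. Antioxidant enzymes had 6 of 26 higher and 7 lower, near the background of 22.5% and 21.7%. Gpx3, the secreted glutathione peroxidase, stood at 9.48, 9.68 and 10.65 in EG in vivo pools, against 12.46, 12.46 and 13.32 in control pools (-2.81 ± 0.34, adjusted p = 0.00033). Gpx2, an epithelial glutathione peroxidase, went the other way, at 7.96, 7.62 and 8.14 in EG in vivo pools, against 5.98, 6.01 and 6.35 in control pools (1.79 ± 0.18, adjusted p = 0.000119). Cat, catalase, was at 10.89, 11.02 and 10.52 in EG in vivo pools, against 11.90, 11.996 and 11.78 in control pools, and fell by 1.08 ± 0.16 on its brightest probe, but did not pass on the mean of its probes (adjusted p = 0.279). None of these genes had overlapping groups. Sod2, the mitochondrial superoxide dismutase, was at 11.49, 11.49 and 11.44 in EG in vivo pools, against 12.20, 12.10 and 11.93 in control pools (-0.60 ± 0.12), a call lost under median scaling (adjusted p = 0.0681). Sod1, the cytosolic form, was at 12.80, 12.77 and 13.11 in EG in vivo pools, against 13.03, 13.05 and 13.29 in control pools, and did not pass (interval -0.54 to 0.08), though it passed at -0.47 on the mean of its probes (adjusted p = 0.0174). Prdx4, a peroxiredoxin of the endoplasmic reticulum, rose by 0.96 ± 0.12, and Glrx, glutaredoxin, fell by 0.87 ± 0.10.

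Of 39 glutathione and NRF2 target genes 14 fell and 4 rose. Gsta3, a glutathione transferase, stood at 6.59, 6.55 and 6.82 in EG in vivo pools, against 8.93, 9.38 and 9.04 in control pools, and Gstm1 (-2.08 ± 0.19), Mgst1 (-1.502 ± 0.14) and Gstk1 (-1.12 ± 0.14) of the same kind of enzyme fell. Gstp1, the transferase of the pi class, rose by 0.84 ± 0.11 and Gstm5 by 0.71 ± 0.14. Nfe2l2, the factor NRF2 that switches these genes on, was at 9.27, 9.19 and 8.79 in EG in vivo pools, against 9.98, 9.60 and 10.09 in control pools (-0.81 ± 0.17, adjusted p = 0.00609). Its best known targets overlapped between groups: Hmox1, heme oxygenase, at 7.15, 6.91 and 8.05 in EG in vivo pools, against 6.67, 7.08 and 7.40 in control pools, and Nqo1, a quinone reductase, at 5.82, 5.97 and 6.02 in EG in vivo pools, against 5.62, 5.26 and 5.88 in control pools. Neither passed (adjusted p = 0.458 and 0.205).

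In the list of oxidant-producing enzymes 13 of 15 tested genes were lower and 0 higher, out of 29 on the array. The list also holds genes that are not such enzymes themselves, Txnip and Rac2 among them. Xdh, xanthine dehydrogenase, which can release superoxide, was at 7.07, 7.17 and 7.85 in EG in vivo pools, against 10.48, 10.58 and 11.34 in control pools. Aox3, an aldehyde oxidase, was at 5.28, 5.78 and 6.10 in EG in vivo pools, against 9.83, 9.87 and 10.26 in control pools. Ncf1, the p47 subunit of the phagocyte oxidase, was detected in EG in vivo lungs on 0 of 9 arrays, stood at 7.20, 7.26 and 7.12 in control pools, and was at least 3.67-fold lower (adjusted p = 5.07e-06). In each of these 3 genes every EG in vivo pool was lower than every control pool. Txnip, which binds and holds back thioredoxin, was at 11.69, 11.70 and 12.15 in EG in vivo pools, against 13.53, 13.47 and 13.94 in control pools. Xenobiotic enzymes of the lung were lower in 21 of 24 tested genes and higher in 0, with a median of -2.15. Ephx1, epoxide hydrolase, fell by 2.64 ± 0.36, and Cyp2e1, detected in EG in vivo lungs on 1 of 9 arrays, was at 4.61, 4.56 and 5.02 in EG in vivo pools, against 8.85, 9.14 and 9.19 in control pools (adjusted p = 2.25e-06).

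**Figure D4:**
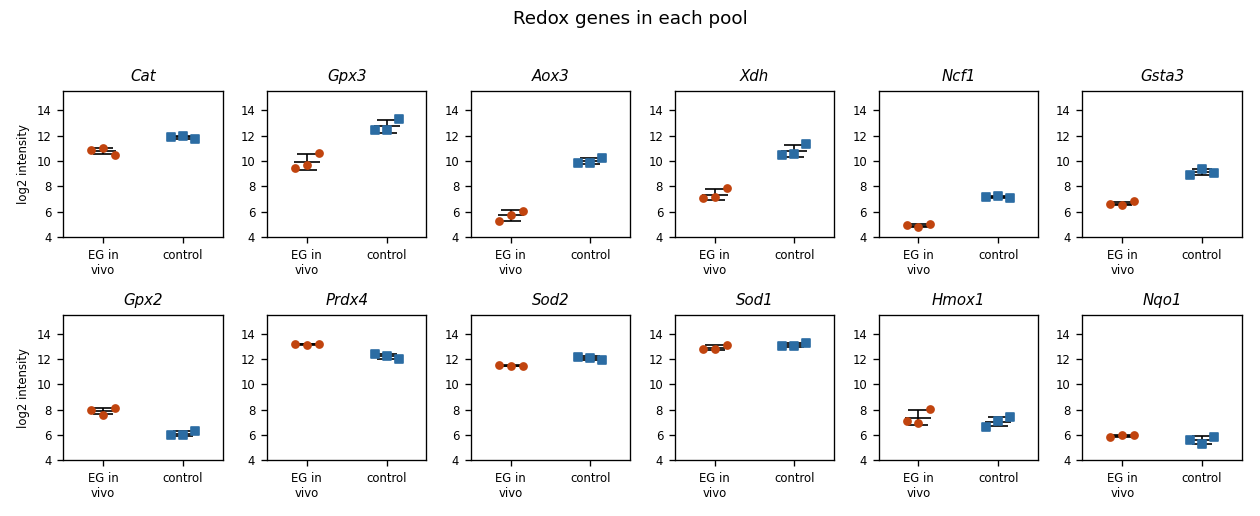
Levels of 12 redox genes in each pool (log2 normalized intensity, same y axis in all panels), EG in vivo pools as orange circles on the left and control pools as blue squares on the right, with mean and SD of 3 pools. The top row and Sod2 are lower in EG in vivo pools, Gpx2 and Prdx4 higher, and Hmox1, Nqo1 and Sod1 overlap.

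Of 62 genes of the respiratory chain and ATP synthase 18 rose and 0 fell, 29.0% called against 44.2% of all genes (22.5% higher), with a median of 0.34, or 35 called with the pool number as a block. Cycs, cytochrome c, was at 11.39, 11.38 and 11.33 in EG in vivo pools, against 10.65, 10.65 and 10.42 in control pools (0.79 ± 0.11). Glycolysis genes had 2 of 18 higher and 4 lower, 33.3% called and again below the 44.2% of all genes. Pkm, pyruvate kinase of growing tissue, rose by 0.73 ± 0.15, and Aldoc, aldolase C, fell by 1.83 ± 0.14. Cholesterol synthesis had 6 of 17 higher and 0 lower, or 10 called with the pool number as a block. Hsd17b7, an enzyme late in that pathway, was at 10.63, 10.55 and 10.47 in EG in vivo pools, against 9.12, 9.15 and 8.69 in control pools. Sqle, squalene epoxidase, rose by 1.07 ± 0.14. Fatty acid and phospholipid genes went down in 22 of 35 cases and up in 3. Lpcat1, which makes the main surfactant lipid, was at 9.19, 9.37 and 9.37 in EG in vivo pools, against 10.82, 11.01 and 10.56 in control pools. Fabp5, a fatty acid carrier, fell by 2.24 ± 0.26. Elovl6, an elongase that works just before Scd1, went up instead, at 9.66, 9.53 and 9.67 in EG in vivo pools, against 7.44, 7.49 and 7.29 in control pools.

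The list of integrated stress and amino acid synthesis genes had 8 of 17 higher and 5 lower. Mthfd2, a mitochondrial enzyme of folate metabolism, was at 10.15, 10.09 and 10.29 in EG in vivo pools, against 8.15, 7.84 and 7.90 in control pools (2.21 ± 0.13, adjusted p = 1.04e-05). Asns, asparagine synthetase, rose by 1.59 ± 0.14, and Aldh18a1 of proline synthesis by 1.97 ± 0.12. Phgdh, first enzyme of serine synthesis, was detected on 4 of 9 control arrays and was at least 3.03-fold higher (adjusted p = 0.00101). Nupr1, a stress-induced chromatin protein, went down, at 7.38, 7.43 and 8.33 in EG in vivo pools, against 10.79, 10.90 and 11.43 in control pools, and Vldlr, a lipoprotein receptor, fell by 1.15 ± 0.11. Chaperones had 6 of 26 higher and 5 lower, near the background of 22.5% and 21.7% of all genes, or 17 called with the pool number as a block. Among small heat shock proteins, Cryab fell by 2.10 ± 0.28, Hspb8 fell by 1.41 ± 0.17 and Hspb1 fell by 1.08 ± 0.17. Hspd1, the mitochondrial chaperonin, rose by 1.12 ± 0.18, and Sdf2l1, of the endoplasmic reticulum, by 1.56 ± 0.21.

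Interferon, antigen presentation and myeloid genes were lower in EG in vivo lungs. Interferon response genes fell in 27 of 36 tested cases and rose in 0, with a median of -1.43, and EG in vivo pool 3 stood nearer the controls than pools 1 and 2. Rsad2, the antiviral protein viperin, was at 6.55, 6.57 and 8.27 in EG in vivo pools, against 10.001, 10.66 and 10.51 in control pools (-3.26 ± 0.46, adjusted p = 0.000771). Oasl2, a 2'-5' oligoadenylate synthetase-like protein, was at 6.98, 7.26 and 9.19 in EG in vivo pools, against 10.81, 11.05 and 10.92 in control pools. Usp18, which takes ISG15 off proteins, was at 6.38, 6.43 and 8.43 in EG in vivo pools, against 9.59, 9.85 and 10.05 in control pools. In these genes EG in vivo pool 3 lay more than 1 unit above the other two EG in vivo pools, yet below every control pool. Ifit3, another antiviral gene, overlapped between groups, at 5.37, 5.49 and 8.35 in EG in vivo pools, against 8.17, 9.52 and 8.81 in control pools, and its call (adjusted p = 0.0344) was lost when EG in vivo pool 1 (adjusted p = 0.114), EG in vivo pool 2 (adjusted p = 0.112), control pool 2 (adjusted p = 0.102) or control pool 3 (adjusted p = 0.0684) was left out.

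The promoters of interferon genes were read in the same 250-base window for GAAANNGAAA, the core of the interferon-stimulated response element, on both strands. It was in 11 of 24 interferon response promoters (45.8%), in 2 of 15 promoters of antigen presentation genes (13.3%) and in 2.58% of the promoters of all tested genes. As examples, 2 interferon genes that fell, with a match and separate groups, are shown with matches in capitals, each read on the strand opposite to the gene. Not every gene with a match was considered for display, so this pair is not a ranking either. Rsad2 (chr12:26456453-26456702, minus strand) has 1 match 120 bases before the start. Gbp3 (chr3:142559794-142560043, plus strand), a guanylate-binding protein at 6.56, 6.46 and 7.97 in EG in vivo pools and 9.04, 9.24 and 9.24 in control pools, has 2 overlapping matches, 45 and 39 bases before the start.
Rsad2: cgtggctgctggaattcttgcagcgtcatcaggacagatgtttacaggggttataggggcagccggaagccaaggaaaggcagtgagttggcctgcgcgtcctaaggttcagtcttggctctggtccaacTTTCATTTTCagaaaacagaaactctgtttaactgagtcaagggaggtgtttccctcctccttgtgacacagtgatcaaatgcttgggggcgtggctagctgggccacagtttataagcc
Gbp3: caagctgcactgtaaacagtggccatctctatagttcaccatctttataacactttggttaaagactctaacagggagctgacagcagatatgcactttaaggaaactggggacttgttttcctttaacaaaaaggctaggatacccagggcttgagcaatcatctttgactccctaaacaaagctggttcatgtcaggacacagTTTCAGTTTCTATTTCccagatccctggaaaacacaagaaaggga

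Antigen presentation genes fell in 15 of 18 cases and rose in 0. H2-D1, a class I heavy chain, was at 9.21, 9.05 and 8.96 in EG in vivo pools, against 11.30, 11.49 and 11.79 in control pools (-2.45 ± 0.18, adjusted p = 2.28e-05), with the 3 EG in vivo pools close together. Cd74, the class II chaperone, fell by 2.60 ± 0.42, and H2-T23 fell by 2.06 ± 0.23. Near-identical histocompatibility genes can share probe signal, so each single gene of that family is uncertain. B2m, the light chain of class I, fell by 0.89 ± 0.12.

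Markers of myeloid cells fell. Granulocyte genes were lower in 16 of 19 tested cases, out of 25 on the array, and higher in 0. S100a9, a calcium-binding protein of neutrophils, was at 7.20, 7.19 and 7.68 in EG in vivo pools, against 10.83, 11.30 and 11.27 in control pools. Retnlg, a neutrophil resistin-like protein, was detected in EG in vivo lungs on 0 of 9 arrays, stood at 7.84, 7.76 and 8.59 in control pools, and was at least 6.72-fold lower (adjusted p = 1.29e-05). Chil3, a chitinase-like protein of myeloid cells, was at least 12.2-fold lower (adjusted p = 3.61e-06), also with 0 of 9 EG in vivo arrays detecting it. The summed linear signal of the 19 granulocyte genes ranged from 3120 to 4760 in EG in vivo pools and from 23100 to 33300 in control pools. That sum includes Lyz2, which is bright in control pools and is also made by type II cells, so it does not measure granulocytes alone. Macrophage and monocyte genes were lower in 20 of 25 cases and higher in 0. Lyz2, a lysozyme that type II cells also make, was at 10.65, 10.88 and 10.40 in EG in vivo pools, against 13.93, 14.36 and 13.61 in control pools. Mpeg1, macrophage perforin, fell by 2.33 ± 0.23, and Cd163, a scavenger receptor, was at least 2.73-fold lower, with 3 of 9 arrays detecting it in EG in vivo lungs (adjusted p = 0.000951). Lymphocyte and mast cell genes had 4 of 12 tested genes lower and 2 higher, out of 31 on the array. These shares are 33.3% and 16.7%, against 21.7% and 22.5% of all genes. How far a different number of leukocytes entered the results for interferon, antigen presentation and oxidant-producing genes was not tested.

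Vessel genes were lower in EG in vivo lungs, with 23 of 36 endothelial genes down and 1 up and a median of -0.84. Pecam1, an adhesion protein of all endothelium, stood at 10.45, 10.44 and 10.64 in EG in vivo pools, against 11.78, 11.69 and 12.49 in control pools (-1.47 ± 0.23, adjusted p = 0.0013). Gpihbp1, which holds lipoprotein lipase on capillaries, was at 7.91, 8.20 and 8.81 in EG in vivo pools, against 10.41, 10.41 and 10.67 in control pools. The arterial connexin Gja5 fell by 1.60 ± 0.12 and the Notch target Hey1 fell by 1.62 ± 0.12. Aplnr, the apelin receptor of sprouting vessels, was the member that rose, at 12.04, 11.91 and 11.92 in EG in vivo pools, against 11.06, 10.94 and 11.43 in control pools. Among 16 genes of lymphatic vessels and mesothelium 10 fell and 2 rose. Msln, mesothelin of the pleura, was at 6.79, 6.78 and 7.77 in EG in vivo pools, against 11.51, 11.69 and 11.87 in control pools, and Mmrn1, a lymphatic glycoprotein, rose by 0.99 ± 0.18.

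In the smooth muscle and pericyte list 6 of 25 genes rose and 3 fell, 36% called against 44.2% of all genes. Acta2, smooth muscle actin, was at 14.35, 14.20 and 14.48 in EG in vivo pools, against 13.53, 13.36 and 13.67 in control pools (0.82 ± 0.13, adjusted p = 0.0013). Actg2, the actin of visceral muscle, was at 11.94, 11.77 and 12.30 in EG in vivo pools, against 10.45, 10.51 and 10.51 in control pools. Myocd, the switch factor of smooth muscle, rose by 1.04 ± 0.16 and Tpm2, a tropomyosin, by 0.88 ± 0.11. Higd1b, a marker of pericytes, fell by 2.25 ± 0.32, while Rgs5, another such marker, rose by 0.94 (limma, adjusted p = 0.00883). Pdgfrb, also of that list, fell by 0.49 (limma, adjusted p = 0.0434), a call lost under 11 of 18 alternatives.

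Matrix genes went in both directions. Of 37 genes of elastic and fibrillar matrix 8 rose and 10 fell, near the background. Eln, elastin, stood at 12.79, 12.80 and 12.82 in EG in vivo pools, against 14.57, 14.63 and 14.50 in control pools (-1.76 ± 0.12, adjusted p = 1.73e-05), with the pools of each group close together. Mfap4, a microfibril protein, was at 11.76, 12.49 and 12.53 in EG in vivo pools, against 14.01, 13.79 and 14.66 in control pools, and Fn1, fibronectin, fell by 2.41 ± 0.21. Among small leucine-rich proteoglycans, Fmod, fibromodulin, rose by 2.61 ± 0.24, Lum, lumican, by 2.52 ± 0.47 and Dcn, decorin, by 0.95 ± 0.16. Col1a1, the main fibrillar collagen, was at 11.98, 11.91 and 12.44 in EG in vivo pools, against 11.69, 11.45 and 12.77 in control pools (interval -0.75 to 1.04, adjusted p = 0.813). In the basement membrane list 10 of 23 fell and 4 rose, shares of 43.5% and 17.4% against 21.7% and 22.5% of all genes. Lama1, the laminin chain of the early embryo, was at 8.12, 8.20 and 8.81 in EG in vivo pools, against 5.93, 5.77 and 6.14 in control pools, and Col18a1 rose by 1.34 ± 0.14. Npnt, nephronectin, fell by 1.59 ± 0.19 and Col4a2 fell by 1.39 ± 0.32.

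Of the airway cartilage genes that could be tested, 8 of 13 rose and 3 fell, out of 23 on the array. These shares are 61.5% and 23.1%, against 22.5% and 21.7% of all genes. The other 10 did not pass the detection filter, among them Acan, at a mean of 4.98 in EG in vivo and 5.02 in control pools. Col2a1, the collagen of cartilage, was at 7.54, 7.48 and 8.27 in EG in vivo pools, was detected on 0 of 9 control arrays, and was at least 6.06-fold higher (adjusted p = 0.00024). Col9a1, which coats those fibrils, was at 8.71, 8.88 and 7.63 in EG in vivo pools, against 5.85, 5.74 and 4.75 in control pools. Mia, a protein secreted by chondrocytes, was at 11.39, 11.38 and 11.64 in EG in vivo pools, against 9.40, 9.52 and 9.17 in control pools. Chad, chondroadherin of mature cartilage, went the other way, at 4.67, 4.999 and 5.28 in EG in vivo pools, where it was detected on 3 of 9 arrays, against 8.32, 9.03 and 9.91 in control pools (adjusted p = 5.88e-05).

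Mesenchymal factors and signalling pathways had members in both directions. Of 29 genes of lung mesenchyme 10 fell and 6 rose, or 10 in both directions under median scaling. The shares that fell and rose were 34.5% and 20.7%, against 21.7% and 22.5% of all genes. Tcf21, a factor of lung fibroblasts, was at 10.67, 10.61 and 11.06 in EG in vivo pools, against 12.10, 11.92 and 12.73 in control pools, and Limch1 fell by 1.79 ± 0.12. Mdk, the growth factor midkine, was at 12.93, 12.97 and 13.88 in EG in vivo pools, against 10.53, 9.77 and 11.14 in control pools, and its relative Ptn rose by 1.33 ± 0.13. Of 45 genes of FGF, Wnt and hedgehog signalling 10 rose and 11 fell, near the background of 22.5% and 21.7%. Among ligands, Wnt7b, made by the epithelium, was at 9.41, 9.34 and 9.94 in EG in vivo pools, against 8.02, 7.91 and 8.02 in control pools, and Fgf9, detected on 2 of 9 control arrays, was at least 2.07-fold higher (adjusted p = 0.000835). Wnt3a, detected in EG in vivo lungs on 1 of 9 arrays, was at 4.68, 4.71 and 5.23 in EG in vivo pools, against 9.90, 9.61 and 10.17 in control pools (adjusted p = 2.65e-06). Fgf1 fell by 1.77 ± 0.18. Of the hedgehog route, the transducer Smo (1.07 ± 0.19) and the factors Gli2 (1.21 ± 0.11) and Gli3 (1.84 ± 0.13) rose. Hhip, which binds hedgehog ligands, fell by 0.83 (limma, adjusted p = 0.00476), a call lost under median scaling (adjusted p = 0.0534). The factor Gli1 was detected on 0 arrays of either group and was not tested. Among Wnt inhibitors, Notum (-1.87 ± 0.17) and Nkd1 (-1.69 ± 0.27) fell, whereas Sfrp1 rose by 0.76 (limma, adjusted p = 0.0238). The call of Sfrp1 was lost without control pool 1 (adjusted p = 0.0747) or control pool 2 (adjusted p = 0.0705). Rspo2, which strengthens Wnt signals, rose by 1.55 ± 0.21.

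Of 47 genes of BMP, TGF-beta, Notch and retinoic acid signalling 5 rose and 14 fell. Bmp7 was at 7.15, 7.50 and 7.43 in EG in vivo pools and 5.30, 4.91 and 4.998 in control pools, where it was detected on 3 of 9 arrays. Bmp6 went the other way, at 5.05, 5.31 and 5.69 in EG in vivo pools, where 6 of 9 arrays detected it, against 7.50, 7.43 and 7.85 in control pools. The endothelial BMP receptor Acvrl1 fell by 1.70 ± 0.15. Heyl, a Notch target of mural cells, rose by 1.202 ± 0.21, and Rarb, a retinoic acid receptor that limits branching, by 1.06 ± 0.13.

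Markers of other organs were read as a check of dissection. Heart muscle genes, which lung veins of the mouse also express, fell in 12 of 17 cases and rose in 0, but in 6 without EG in vivo pool 1 and in 7 without control pool 1. Myh6, a cardiac myosin, was at 8.31, 9.20 and 9.56 in EG in vivo pools, against 10.11, 10.21 and 11.13 in control pools, with EG in vivo pool 1 the lowest. The summed linear signal of the list ranged from 4520 to 8370 in EG in vivo pools and from 12700 to 16200 in control pools. Myl2 and Nppa did not pass the detection filter and are not in that sum. Nppa, detected on 3 of 9 arrays of each group, went against the list, with a mean of 6.63 in EG in vivo and 4.91 in control pools. Skeletal muscle had 1 of 9 genes lower (Ckm), and 0 without EG in vivo pool 1. Liver had 1 of 9 lower, Trf, transferrin, which lung cells also make, while the liver's Alb and Apoa1 did not pass the filter. Alb was detected on 0 arrays of either group, and Apoa1 on 4 of 9 EG in vivo and 0 of 9 control arrays. The liver list's summed linear signal ranged from 901 to 2010 in EG in vivo pools and from 8690 to 13800 in control pools. Its median difference was 0.01, only 1 of the 9 genes was detected on all 18 arrays, and Trf fell by 4.36. The sum can therefore rest largely on 1 gene and is not a measure of liver tissue. Of the thymus and oesophagus genes 1 of 4 rose (Cd8b1), and 2 passed without EG in vivo pool 3. The part of such tissue in the other results was not tested. Of 14 housekeeping genes 5 rose and 2 fell, with a median of 0.38. Actb, cytoplasmic actin, was at 14.15, 13.99 and 14.33 in EG in vivo pools, against 14.41, 14.14 and 14.41 in control pools, and did not pass (adjusted p = 0.38), whereas Tubb5, a tubulin, rose by 1.03 ± 0.10.

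List medians were also taken within each pair of pools that carry the same number. In 44 of 51 lists they had the same sign in all 3 pairs. The 7 others were basal and neuroendocrine cells, lung mesenchyme, BMP to retinoic acid signalling, the IGF axis, skeletal muscle, liver, and thymus and oesophagus. The median of the mitosis list was 2.11, 2.23 and 2.56 between pools 1, 2 and 3, and that of the alveolar type I list was -2.22, -2.19 and -2.26. Interferon response genes had medians of -1.49, -1.74 and -1.22. Of these lists, club cell genes varied most, at -3.84, -4.15 and -2.88, and granulocyte genes had -1.44, -2.43 and -2.39. Over all genes the medians were 0.02, 0.01 and 0.08.

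**Figure D5:**
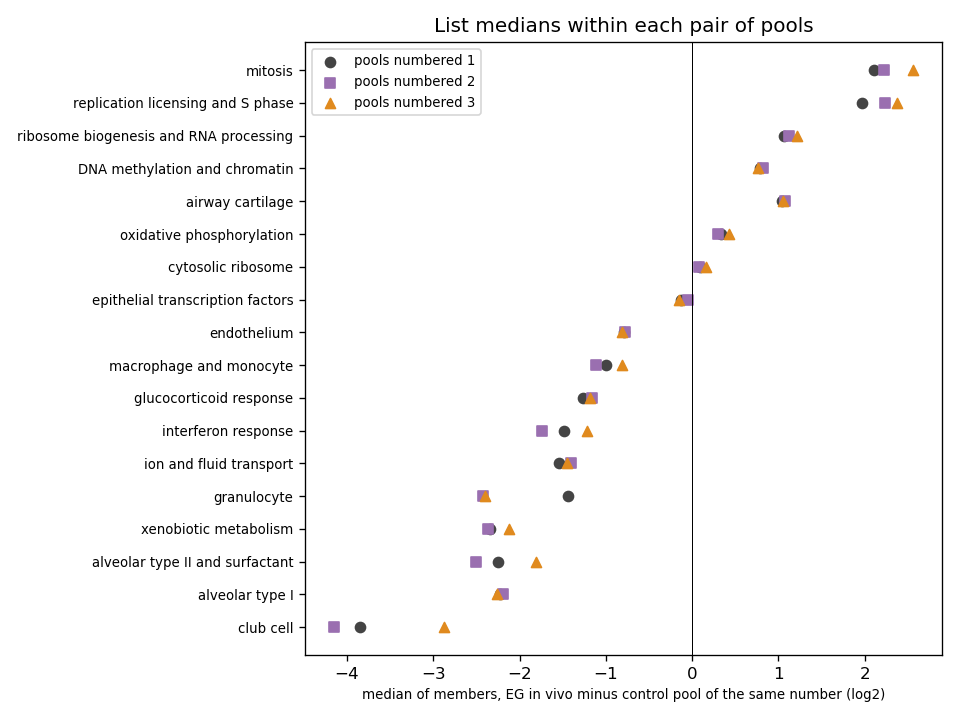
Each row is a gene list, and each symbol the median over its members of EG in vivo minus the control pool of the same number (log2), with circles, squares and triangles for pools 1, 2 and 3. The symbols lie on the same side of 0 in the 18 lists shown, which were chosen with results known from 51, with club cells from -4.15 to -2.88 and mitosis from 2.11 to 2.56.

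Lungs from in vitro-derived blastocysts, transferred in the same way, made up the other transfer group. In the same fit 0 genes, or 0% of those tested, passed between EG in vivo and EG in vitro lungs (limma), with 149 genes at an unadjusted p under 0.05, 1.27% of all, and 1 gene passing when arrays were weighted. Differences were small: the median absolute difference was 0.0835, and 7 genes differed by 1 unit or more. The gene with the lowest p was Tgm1, a transglutaminase of epithelial barriers, at 6.17 ± 0.22 in EG in vivo, 5.33 ± 0.10 in EG in vitro and 7.71 ± 0.18 in control lungs (SD, n = 3 pools each). Its p between the transfer groups was 0.000462 before adjustment (limma) and its adjusted p 1.00. Against controls, which both comparisons share, the difference of Sftpb was -3.42 in EG in vivo and -3.67 in EG in vitro lungs, and that of Hbb-y was 4.44 in EG in vivo and 4.66 in EG in vitro lungs. A p that misses the threshold does not show that the transfer groups were alike.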

How the data were processed

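The authors deposited bead intensity per probe for 27 arrays, neither normalized nor background corrected, with a detection p-value per probe and array, per the file headers. They also deposited a table of processed intensity values per array with medians between 138.4 and 138.6, which ranked the probes of each array as the raw values do and was used as an alternative. The scanner software and the authors' normalization are not stated in the labels or headers.

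Intensities were corrected, quantile-normalized and log2-transformed with neqc of limma 3.58.1 in R 4.3.3 (offset 16), using the detection p-values. The 3 arrays of each pool were averaged, and limma (lmFit, eBayes) was fitted to the 9 pools of all 3 groups, which gave 6 residual and 2.39 prior degrees of freedom. Probes with a detection p under 0.05 on at least 6 of 9 arrays of either EG in vivo or control lungs were kept (22426 of 45281). P-values were adjusted by Benjamini-Hochberg over these probes, and the brightest probe stood for each of 11774 genes. Probes were named from the platform annotation: 34885 had 1 symbol, 18 several and 10378 none, and 34807 were matched to RefSeq (GRCm38.p6), whose promoters were searched with Python 3.11.15. Of 4792 genes with several probes, 17 had probes that passed in opposite directions. All measured columns were mapped to samples. The fit was also run on simulated data with independent noise in each gene and pool. Those data lack the shared shift of pool 3, so that run does not test the fit under such a shift.

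Where 0 of 9 arrays of a group detected a gene, only a bound is given: the fold is at least the brighter group's mean over the dim group's, where each dim array counts as the higher of the probe's own signal and the lowest detected signal. For a gene detected on 1 to 5 of 9 arrays the same bound is given with that number, or the levels alone. Deviations from the group mean correlated at 0.552, 0.675 and 0.722 between EG in vivo and control pools of the same number, but also at 0.548 and 0.362 between pools 1 and 2 across numbers, so the check separates pool 3 and hardly pools 1 and 2. Pools that the labels give the same number were treated as pairs, fitted as a block in an alternative. The number of pools, 3 in each group, limits precision.

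The comparison, its gene lists and its tests were chosen with earlier results of these data known. Genes were named from those that a rule gave (374), of which the text takes a part: the 20 highest and 20 lowest changes with separate groups, up to 6 of the largest changes in each list, members that passed against their list's direction, and a set of always-named lung, globin, hormone, imprinted and redox genes. Cenpn and Gbp3 were chosen for their promoters after their values were seen. Scgb3a2, Mki67, Hbb-b1 and H19 are not analysed here.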

Additional observations from a re-analysis of the deposited data

How the results depend on the processing

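The count of 5206 genes between EG in vivo and control lungs ranged from 4229 (without EG in vivo pool 1) to 5158 when 1 pool was left out, and that between the transfer groups stayed at 0 in these fits (limma, 149 genes at an unadjusted p under 0.05). With the pool number as a replicate block, 6979 genes passed between EG in vivo and control lungs, all 5206 among them, and 0 between the transfer groups; the lists whose count the pairing moved by over 1.5 times are given with it above, and it ended no call of a named gene. Array weights gave 8511 genes and, between the transfer groups, 1. A test for a change beyond 1.2-fold, stricter by construction, gave 3432, with 7 members of the respiratory chain list, 7 of the antioxidant list, 7 of the epithelial factors, 6 of epithelial adhesion, 11 of BMP to retinoic acid signalling, 4 of the housekeeping genes, 3 each of glycolysis, cytosolic ribosome and lymphocytes, and 2 of the oncofetal genes. Of 356 named genes that passed, 285 did so under all 18 alternatives, and no gene passed in the opposite direction under any. Cebpd had a difference of -0.22 on the mean of its probes (adjusted p = 0.732) and Fech of 0.20 without EG in vivo pool 3 (adjusted p = 0.864), against -1.37 without control pool 1, the ends of its range with 1 pool left out. Both values were opposite to the gene's main one. The brightest probe of a gene was chosen anew when a pool was left out, so the probe can differ between fits. The cause of these changes was not tested. The 4 genes with a printed promoter passed under each of the 18. Signal over background limits dim genes: 188 genes that passed were detected on no EG in vivo array and 58 on no control array.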

Other observations

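Rises and falls were unevenly split on some chromosomes. On the X chromosome 26.3% of 377 tested genes were higher and 12.5% lower in EG in vivo lungs, and on chromosome 13 28.3% of 417 genes were higher and 17.7% lower, against 22.5% and 21.7% of all genes. Control pool 1 carried Xist, and its part in the X chromosome's split was not tested.

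Among the genes nearest to a difference between the transfer groups, Nuf2 of the kinetochore averaged 6.55 ± 0.04 in EG in vivo, 5.94 ± 0.10 in EG in vitro and 4.95 ± 0.12 in control lungs (SD, n = 3 pools each), and Enkur, a protein of motile cilia, averaged 7.49 ± 0.14, 6.91 ± 0.18 and 9.29 ± 0.19 in the same groups. Neither passed between the transfer groups (limma, adjusted p = 1.00 for both).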
